A study of Phaseolus vulgaris with 18 samples.

Results

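The genes described here are the large heat shock proteins of common bean, that is the HSP60, HSP70, HSP90 and HSP100 chaperones, together with the heat shock factors and a few proteins named after them. A gene entered the set when its description in the deposited table contained the words heat shock, HSP70, HSP90 or HSP101, and when it was neither a small heat shock protein nor a DnaJ co-chaperone. It also needed a count of at least 10 in at least 3 of the 18 libraries. The descriptions matched 63 genes of 25124 in the table, and 60 of them passed the count rule. The 3 genes under it were a pair of HSP70 genes (Phvul.008G011300 and Phvul.008G011400) and a heat shock factor A6B gene (Phvul.007G061800). The 60 genes comprised 24 heat shock factors, 18 HSP70s, 4 HSP90s, 4 HSP100s of the HSP101 type, 3 HSP60s, 2 heat shock factor binding proteins and 1 HSP70-interacting protein. The remaining 4 genes carry an ATPase domain of the kind found in HSP90 and in DNA gyrase and are named for it, without being HSP90 chaperones.

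RNA was sequenced from 2 bean lines grown in a climate chamber with no treatment. A18-1, called the golden line, bears pods that turn from green to gold while they mature, a trait the submitters assign to the pv-ye gene, and Renaya, called the green line, has pods that stay green until they ripen. Each line was sampled at 10, 14 and 18 days after flowering (DAF), with 3 libraries per group, described as independent biological repeats. The lines differ in their whole genetic background, each stands for its colour alone, and neither the temperature nor the hour of sampling is given in the sources used here. The design text names pod walls, whereas the tissue label reads leaf, the cell type label reads somatic cell and the extraction text mentions adipose. AGAMOUS-like 8 (Phvul.009G203400), the bean match of an Arabidopsis fruit wall factor, stood at 107 ± 17.9 FPKM (SD, n = 3) in golden pods at 10 DAF and at 41.7 ± 11.3 FPKM in green pods at 14 DAF, its lowest group. This gene is 1 of 31 on a pod or carpel marker list, and its level does not settle which label holds. Every level below is in FPKM, a fragment count corrected for transcript length and for the size of the library.

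Heat shock proteins bind proteins that are unfolded or partly folded. HSP70 holds exposed stretches and releases them with its DnaJ partners, HSP90 finishes the folding of kinases, receptors and other clients, HSP60 forms a closed folding chamber in mitochondria, and HSP101 pulls proteins out of aggregates together with HSP70. Many of these genes have a cognate form that is always on and an inducible form that rises with heat or other stress. Heat shock factors bind a repeated promoter element in front of these genes. Work in Arabidopsis and tomato places the A1 factors at the head of the response, A2 among the factors they switch on, and the B1 and B2 factors among its repressors.

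Depth was similar in all libraries, from 48757139 to 74377200 counts, and replicate correlations of depth-scaled log2 counts ranged from 0.914 to 0.976. Counts were compared with edgeR's quasi-likelihood test over 22805 genes, all 60 members among them, and a gene was called at an adjusted p under 0.05. These p-values measure the spread between libraries, and in a whole pod wall fewer cells of a type and less RNA per cell cannot be told apart. One library stood apart in the chaperones. In green replicate 3 at 18 DAF, 9 of the 29 chaperones were at least 2-fold above both other replicates, as were 12 of all 60 members and 14 of 51 tested small heat shock proteins, against 2.16% of all genes. In the other 17 libraries the count ran from 0 to 2 of the 29 chaperones and from 0 to 6 of the 60 members. The small heat shock proteins did not set it apart, since their count ran from 0 to 17 in the other libraries, with the 17 in green replicate 3 at 14 DAF. Of all genes, 8.03% were at least 2-fold below both other replicates in green replicate 3 at 18 DAF. Golden replicate 2 at 18 DAF lay furthest from its group over all genes, with 7.95% at least 2-fold above and 10.51% below both others. Values without green replicate 3 at 18 DAF are given beside the results that this library moved.

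Golden pods held much less chaperone RNA than green pods at the 2 younger ages, and no longer did so clearly at 18 DAF. At 10 DAF, 28 of the 60 members were lower in the golden line and 7 were higher, where 15.5% of all tested genes were lower and 17.1% were higher. At 14 DAF, 27 were lower and 7 were higher, against 21.2% and 20.4% of all genes. Of these, 24 members were lower at both ages and 6 were higher at both. The share of all genes called at both ages was not counted, so these numbers have no background beside them. At 18 DAF only 2 members were lower and 2 were higher, against 6.99% and 7.99% of all genes, and leaving out single libraries gave 3 to 7 calls in all. The median log2 difference of the 60 members was -0.53 at 10 DAF, -0.61 at 14 DAF and -0.11 at 18 DAF, with the median of all genes between -0.02 and 0.02.

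**Figure D1:**
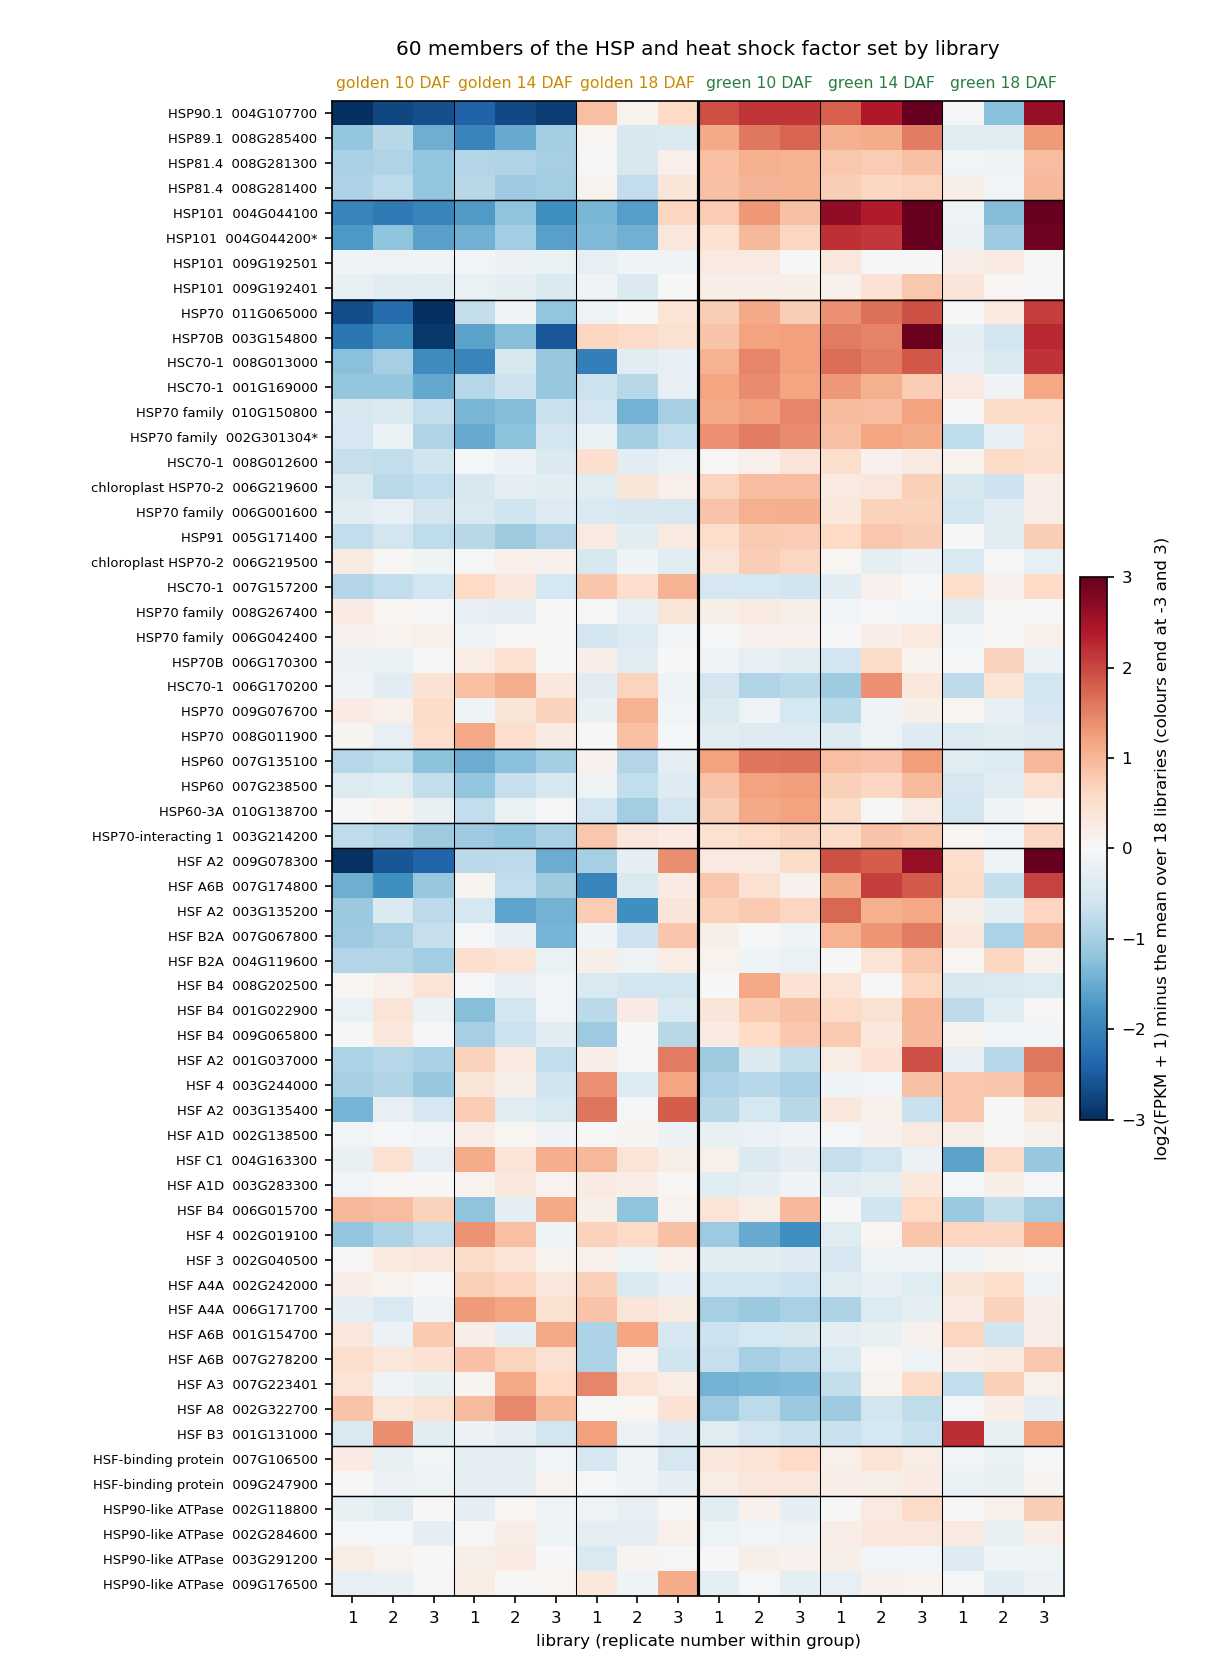
Level of each of the 60 members (rows, grouped by class and marked with the gene number; an asterisk marks a locus with more than 1 gene name) in each of the 18 libraries (columns), as log2(FPKM + 1) minus the member's mean over all libraries. The HSP90, HSP60 and most HSP70 rows are blue in golden pods at 10 and 14 DAF and red in green pods, and green replicate 3 at 18 DAF looks like the younger green libraries in these rows.

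Among the 29 chaperones (HSP60, HSP70, HSP90 and HSP100), 21 were lower and 1 was higher in the golden line at 10 DAF, with a median of -1.84, and 19 were lower and 1 was higher at 14 DAF, with a median of -1.70. Of the 24 heat shock factors, 6 were higher and 4 lower at 10 DAF, 6 higher and 6 lower at 14 DAF, and none was called at 18 DAF by edgeR. That is 25.0% and 16.7% at 10 DAF, where all genes had 17.1% and 15.5%. At 14 DAF it is 25.0% on each side, where all genes had 20.4% and 21.2%. These factor shares lay near those of all genes. The 4 ATPase-domain genes had no call at 10 or 14 DAF. Levels that did not overlap between the lines gave the same picture. At 10 DAF all 3 golden libraries lay below all 3 green libraries for 22 of the 29 chaperones, against 29.6% of all genes, and at 14 DAF for 21, against 27.1%. At 18 DAF this held for 6, against 17.9% of all genes. All 3 golden libraries lay above all 3 green ones for 3 chaperones at 10 DAF, 1 at 14 DAF and 1 at 18 DAF. The shares of all genes on that side were 30.2%, 26.5% and 8.37%. As a share of all counts, the members made up 0.346% to 0.384% of golden libraries and 0.998% to 1.14% of green libraries at 10 DAF. The golden share was 0.634% to 0.869% at 18 DAF, while the green share was 0.607% and 0.685% in replicates 2 and 1 and 1.34% in replicate 3.

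**Figure D2:**
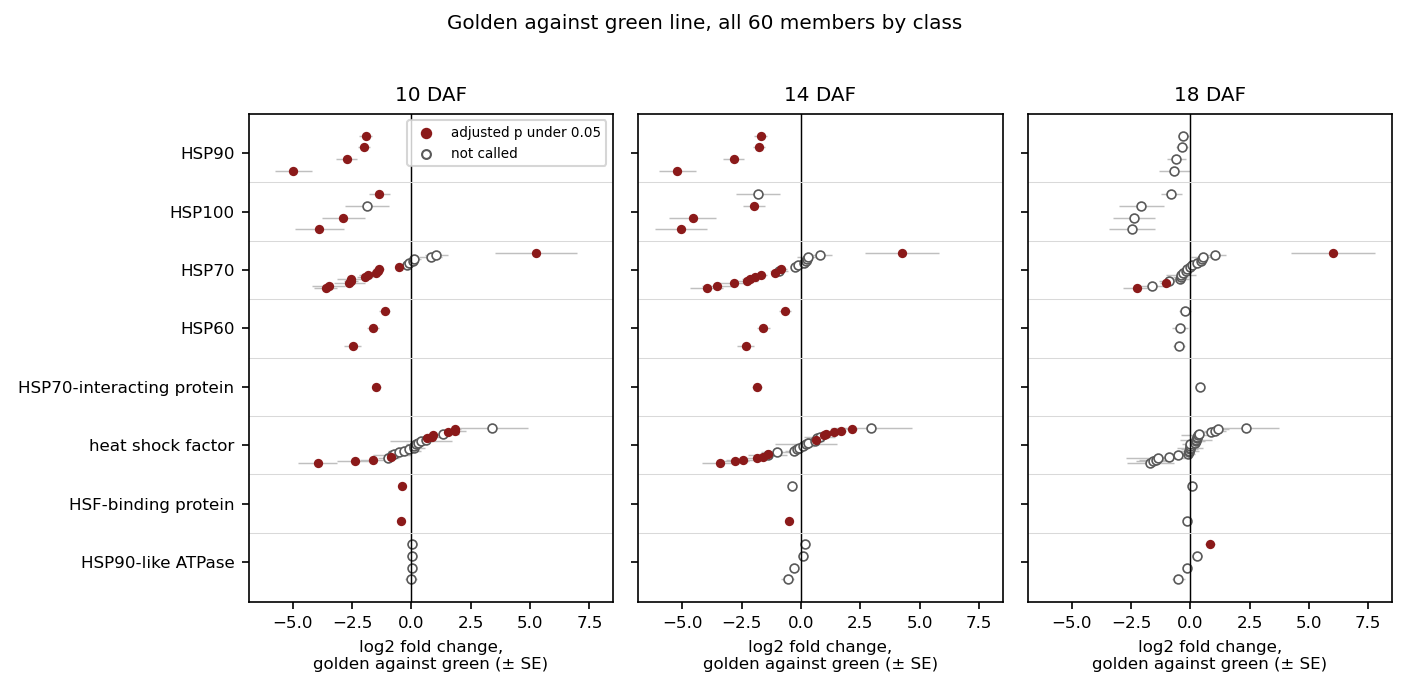
Log2 fold change of golden against green pods (horizontal axis, with the standard error) for all 60 members, by class, at 10, 14 and 18 DAF; filled points passed an adjusted p of 0.05. HSP90 and HSP60 points all lie left of 0 and are filled at 10 and 14 DAF, heat shock factors lie on both sides, and few points are filled at 18 DAF.

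All 4 HSP90 genes were lower in golden pods at 10 and 14 DAF. HSP90.1 (Phvul.004G107700), the heat-inducible cytosolic HSP90 of Arabidopsis, moved most. Its level was 11.7, 14.6 and 15.7 FPKM in the golden libraries at 10 DAF and 399.7, 463 and 463 in the green ones. At 14 DAF the golden libraries stood at 18.4, 15.1 and 13.6 and the green libraries at 359.9, 548 and 846. The lines were far apart at both ages, with no overlap (log2 -4.97, SE 0.77, adjusted p = 0.00032 at 10 DAF; log2 -5.22, SE 0.78, adjusted p = 0.00024 at 14 DAF). By 18 DAF golden pods had reached 193, 112 and 156 FPKM, and the green libraries read 99.1, 42.3 and 642. The groups then overlapped, with green replicates 1 and 2 below every golden library and green replicate 3 above every one. The line difference at 18 DAF was not called (log2 -0.67, SE 0.65, adjusted p = 0.54), and its sign rested on that 1 library: without it the golden line was higher (log2 1.24, adjusted p = 0.045). Within the golden line the gene rose from 14 to 18 DAF (log2 3.48, SE 0.72, adjusted p = 0.011), a call just missed without golden replicate 2 at 14 DAF (adjusted p = 0.051).

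The constitutive HSP90 genes moved together at smaller size. Phvul.008G281300 and Phvul.008G281400 are neighbours that share the description HSP81.4, a cytosolic HSP90 that is always on, and reads may have been split between them. Phvul.008G281300 stood at 114, 119 and 97.8 FPKM in golden and 417, 466 and 462 in green pods at 10 DAF (log2 -2.01, SE 0.25, adjusted p = 5.5e-05). Phvul.008G281400 stood at 122, 136 and 105 against 434, 477 and 482 FPKM (log2 -1.93, SE 0.27, adjusted p = 0.00015). Neither gene's groups overlapped at 10 or 14 DAF, where the log2 differences were -1.76 and -1.70, and both overlapped at 18 DAF. The third form, HSP89.1 (Phvul.008G285400), is annotated to mitochondria and chloroplasts. It read 11.8, 14.9 and 9.25 FPKM in golden and 62, 84.7 and 94.7 in green libraries at 10 DAF, again with no overlap (log2 -2.74, SE 0.43, adjusted p = 0.00035), and differed by -2.84 ± 0.43 (log2, SE) at 14 DAF. Summed over the 4 genes, HSP90 levels were 228 to 284 FPKM in golden and 1312 to 1501 in green pods at 10 DAF. At 18 DAF the sums were 432 to 726 in the golden libraries and 596, 486 and 1592 in green replicates 1, 2 and 3.

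Of the 4 HSP101 genes, the disaggregases that Arabidopsis needs to survive severe heat after a mild warning, 3 were lower in golden pods at 10 and at 14 DAF. The main gene, Phvul.004G044100, was at 1.14, 0.948 and 1.13 FPKM in golden and 13.3, 20 and 14.6 in green libraries at 10 DAF. At 14 DAF the golden libraries held 1.59, 2.67 and 1.36 and the green ones 52.2, 43 and 91.7. Golden levels were low in all 6 young libraries and never met the green ones (log2 -3.88, SE 1.04, adjusted p = 0.011 at 10 DAF; log2 -5.06, SE 1.09, adjusted p = 0.0024 at 14 DAF). At 18 DAF the golden libraries read 2.27, 1.69 and 12.3 and the green libraries 6.69, 2.45 and 81.7, so both groups had 1 high library, replicate 3, and they overlapped (log2 -2.45, SE 0.97, adjusted p = 0.11). Without green replicate 3 the difference was 0.31 and stayed uncalled. Its neighbour Phvul.004G044200 is merged in the table with a protein kinase gene and followed it (log2 -2.87, SE 0.91, adjusted p = 0.026 at 10 DAF; log2 -4.57, SE 0.98, adjusted p = 0.0023 at 14 DAF). The call on this locus at 10 DAF was lost on leaving out any 1 of 4 libraries (adjusted p = 0.051 to 0.09). Phvul.009G192401 stayed under 2 FPKM in every library and was lower by -1.36 at 10 DAF and -1.98 at 14 DAF on the log2 scale. Its call at 10 DAF was lost without any 1 of 5 of the 6 libraries compared (adjusted p = 0.058 to 0.11). The fourth gene, Phvul.009G192501, summed to 24 counts in the golden and 88 in the green libraries at 10 DAF and had no call in any comparison. Its golden libraries all lay below its green ones at 10, 14 and 18 DAF, as did those of Phvul.009G192401. Of all genes, 29.6%, 27.1% and 17.9% were so placed at these ages. Neither gene was called at 18 DAF.

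The HSP70s were not uniform, and the most abundant one did not share the difference. HSC70-1 gene Phvul.007G157200, the match of the main cytosolic HSP70 that is always on, averaged 834 FPKM over all libraries, the highest of the 60 members. It read 419, 463 and 514 FPKM in golden and 539, 538 and 512 in green pods at 10 DAF, and the groups overlapped at all 3 ages. Its line differences were -0.18 ± 0.24, 0.24 ± 0.24 and 0.49 ± 0.24 (log2, SE) at 10, 14 and 18 DAF, none of them called. It rose with age in both lines instead (log2 1.71, SE 0.25, adjusted p = 0.0006 from 10 to 18 DAF in golden pods; log2 1.04, SE 0.24, adjusted p = 0.0045 in green pods, and 0.93, adjusted p = 0.017 without green replicate 3 at 18 DAF).

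Other cytosolic HSP70s were far lower in young golden pods. Phvul.011G065000, described as HSP70 and among the 5 most abundant members, was at 24.4, 31.2 and 15.8 FPKM in golden and 266, 351 and 266 in green libraries at 10 DAF. At 14 DAF the values were 95.8, 148 and 68.9 against 413, 499 and 596. Golden libraries lay below green ones without overlap at both ages (log2 -3.62, SE 0.49, adjusted p = 0.00012 at 10 DAF; log2 -2.29, SE 0.46, adjusted p = 0.0016 at 14 DAF), and the gene had already risen in golden pods between them (log2 2.11, SE 0.46, adjusted p = 0.044; adjusted p = 0.055 to 0.17 on leaving out any 1 of 11 libraries). At 18 DAF the golden libraries reached 143, 159 and 212 and the green libraries read 161, 193 and 670, overlapping.

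HSP70B (Phvul.003G154800) resembled HSP90.1. Its golden libraries read 9.32, 11.5 and 5.25 FPKM at 10 DAF, 14.2, 18.2 and 6.92 at 14 DAF and 72.1, 68.4 and 62.2 at 18 DAF. The green libraries read 82.5, 105 and 108, then 137, 129 and 354, then 37.1, 30.3 and 222. Golden pods were lower with no overlap at the younger ages (log2 -3.49, SE 0.69, adjusted p = 0.0017 at 10 DAF; log2 -3.98, SE 0.70, adjusted p = 0.00067 at 14 DAF). At 18 DAF the golden values were close to each other, above green replicates 1 and 2 and below green replicate 3.

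Of the HSC70-1 genes besides the most abundant one, Phvul.001G169000 was lower in golden pods at all 3 ages. Its levels were 55.6, 55.2 and 42.5 against 286, 339 and 287 FPKM at 10 DAF (log2 -2.57, SE 0.30, adjusted p = 3.6e-05), and it differed by -1.95 ± 0.29 (log2, SE) at 14 DAF. At 18 DAF the golden libraries read 79.8, 69.7 and 105 and the green ones 152, 117 and 282, a small gap between golden replicate 3 and green replicate 2 (log2 -1.01, SE 0.28, adjusted p = 0.027). That last call was lost without golden replicate 1, golden replicate 2 or green replicate 3 (adjusted p = 0.061 to 0.15), and without green replicate 3 the difference was -0.54. Phvul.008G013000 was lower at 10 DAF (-2.62) and 14 DAF (-2.82) and Phvul.008G012600 at 10 DAF only by the test (-1.84; -0.93 with adjusted p = 0.06 at 14 DAF). Both lie in a run of HSP70 genes on one stretch of gene numbers, where near-identical copies may share reads.

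Phvul.010G150800 was a low gene, at 1.22, 1.3 and 0.851 FPKM in golden and 5.8, 6.4 and 7.55 in green libraries at 10 DAF. It was lower in golden pods at all 3 ages, with log2 differences of -2.53 ± 0.59, -3.54 ± 0.62 and -2.24 ± 0.59 (SE), and its groups never overlapped. The call at 18 DAF was lost without golden replicate 3 or green replicate 3 (adjusted p = 0.054 to 0.067). HSP91 (Phvul.005G171400), a large relative of HSP70 despite its number, was at 60.3, 68.4 and 59.3 against 147, 176 and 172 FPKM at 10 DAF (log2 -1.39, SE 0.23, adjusted p = 0.00056). It differed by -1.67 ± 0.23 at 14 DAF and by 0.00 ± 0.23 at 18 DAF, where the groups overlapped, or by 0.39, adjusted p = 0.19 without green replicate 3.

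By the test, 1 HSP70 was higher in golden pods. Phvul.008G011900, from the same run of HSP70 genes, was at 1.91, 0.866 and 0.535 FPKM in golden libraries at 14 DAF and at 0, 0.171 and 0 in green ones. All golden libraries held reads and most green libraries held none. Summed over 3 libraries, golden and green counts were 168 and 4 at 10 DAF, 435 and 18 at 14 DAF, and 261 and 4 at 18 DAF. After scaling for depth the ratios were 40.4 (95% exact interval 15.5 to 150.1), 21.98 (13.7 to 37.4) and 58.0 (22.4 to 214.5), intervals that cover counting error only. It was called higher at each age (0.031, 0.04 and 0.033 as adjusted p), but every one of these calls was lost on leaving out single libraries (adjusted p up to 0.1 at 10 DAF, 0.11 at 14 DAF and 0.1 at 18 DAF). At each age 1 green library held all green reads, replicate 1 at 10 DAF and replicate 2 at 14 and 18 DAF, and without it the fitted differences went from 5.26, 4.26 and 6.03 to 8.77, 10.06 and 9.57, which depend on the prior count.

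The HSP70s of the endoplasmic reticulum and of the chloroplast were lower as well. A locus that merges the names Phvul.002G301304 and Phvul.002G328904 is assigned by the table to BiP, the HSP70 that folds secreted proteins in the endoplasmic reticulum. It read 69.6, 85.8 and 52.4 FPKM in golden and 258, 290 and 266 in green libraries at 10 DAF, and 34, 41.9 and 66.6 against 184, 226 and 216 at 14 DAF. Both ages had no overlap (log2 -1.96, SE 0.33, adjusted p = 0.00058 at 10 DAF; log2 -2.14, SE 0.33, adjusted p = 0.0003 at 14 DAF). Phvul.006G001600, assigned to a large HSP70 of the same compartment, was at 21.7, 23.2 and 18.7 against 51.4, 59.3 and 60.2 FPKM at 10 DAF (log2 -1.41, SE 0.18, adjusted p = 6e-05) and differed by -1.11 ± 0.17 at 14 DAF.

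Chloroplast HSP70-2 is represented by a pair of neighbours. Phvul.006G219600 was at 48.4, 36.6 and 38.6 FPKM in golden and 104, 124 and 124 in green libraries at 10 DAF (log2 -1.50, SE 0.24, adjusted p = 0.00037), and at 50.1, 84.8 and 72 and 46.8, 41.8 and 75 at 18 DAF, where the groups overlapped. The difference at 18 DAF was 0.46 and not called, and 0.78, adjusted p = 0.033 without green replicate 3. Phvul.006G219500 differed less, by -0.53 ± 0.16 at 10 DAF, a call lost without any 1 of 4 libraries (adjusted p = 0.062 to 0.1), and by 0.20 ± 0.16 at 14 DAF. Photosynthetic marker genes were higher in golden pods, 8 of 21 at 10 DAF, 20 at 14 DAF and 16 at 18 DAF, with none lower at any age by edgeR. Of all genes, 17.1%, 20.4% and 7.99% were higher and 15.5%, 21.2% and 6.99% lower at 10, 14 and 18 DAF. The part of these markers in the result was not tested.

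The other HSP70s had no call between the lines. For Phvul.006G170200 and Phvul.009G076700 all golden libraries nevertheless lay above all green ones at 10 DAF (means 40.76 against 23.35 and 2.709 against 1.314 FPKM). Phvul.006G170200, Phvul.006G170300, Phvul.008G267400 and Phvul.009G076700 had no call in any of the 10 comparisons, and Phvul.006G042400 only a fall of 0.35 on the log2 scale within golden pods from 10 to 18 DAF, which did not survive leaving out any 1 of 14 libraries (adjusted p = 0.051 to 0.16).

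The 3 HSP60 genes, which build the mitochondrial folding chamber, were all lower in golden pods at 10 and 14 DAF. Phvul.007G135100 was at 25.6, 27.4 and 19.5 FPKM in golden and 111, 147 and 149 in green libraries at 10 DAF, and at 16.2, 19.3 and 22.7 against 89.6, 86.1 and 115 at 14 DAF. Neither age had overlap (log2 -2.48, SE 0.36, adjusted p = 0.00019 at 10 DAF; log2 -2.33, SE 0.35, adjusted p = 0.00027 at 14 DAF). Phvul.007G238500 differed by -1.63 ± 0.26 and -1.58 ± 0.26 at these ages. HSP60-3A (Phvul.010G138700) differed by -1.12 ± 0.24 and -0.67 ± 0.24, and its call at 14 DAF was lost without golden replicate 1, golden replicate 2 or green replicate 1 (adjusted p = 0.056 to 0.16). In the green line all 3 fell from 10 to 18 DAF, by 1.21, 1.13 and 1.23 on the log2 scale in that order. The fall of Phvul.007G135100 was not called without green replicate 1 or 2 at 18 DAF (adjusted p = 0.055 to 0.067), and without replicate 3 it came to 1.86.

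HSP70-interacting protein 1 (Phvul.003G214200), named after a co-chaperone that in mammals keeps HSP70 bound to its client, showed the same pattern. It stood at 111, 104 and 89.2 FPKM in golden and 259, 286 and 307 in green libraries at 10 DAF, and at 88.4, 82 and 95.7 against 278, 342 and 326 at 14 DAF. All golden values were below all green values (log2 -1.48, SE 0.21, adjusted p = 0.00015 at 10 DAF; log2 -1.84, SE 0.21, adjusted p = 3.9e-05 at 14 DAF). In golden pods it then rose to 333, 239 and 224 FPKM at 18 DAF (log2 1.78, SE 0.21, adjusted p = 0.0012 from 14 DAF). Green libraries read 195, 178 and 290, and the groups overlapped. The difference at 18 DAF was 0.39 and not called, and 0.65, adjusted p = 0.042 without green replicate 3.

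**Figure D3:**
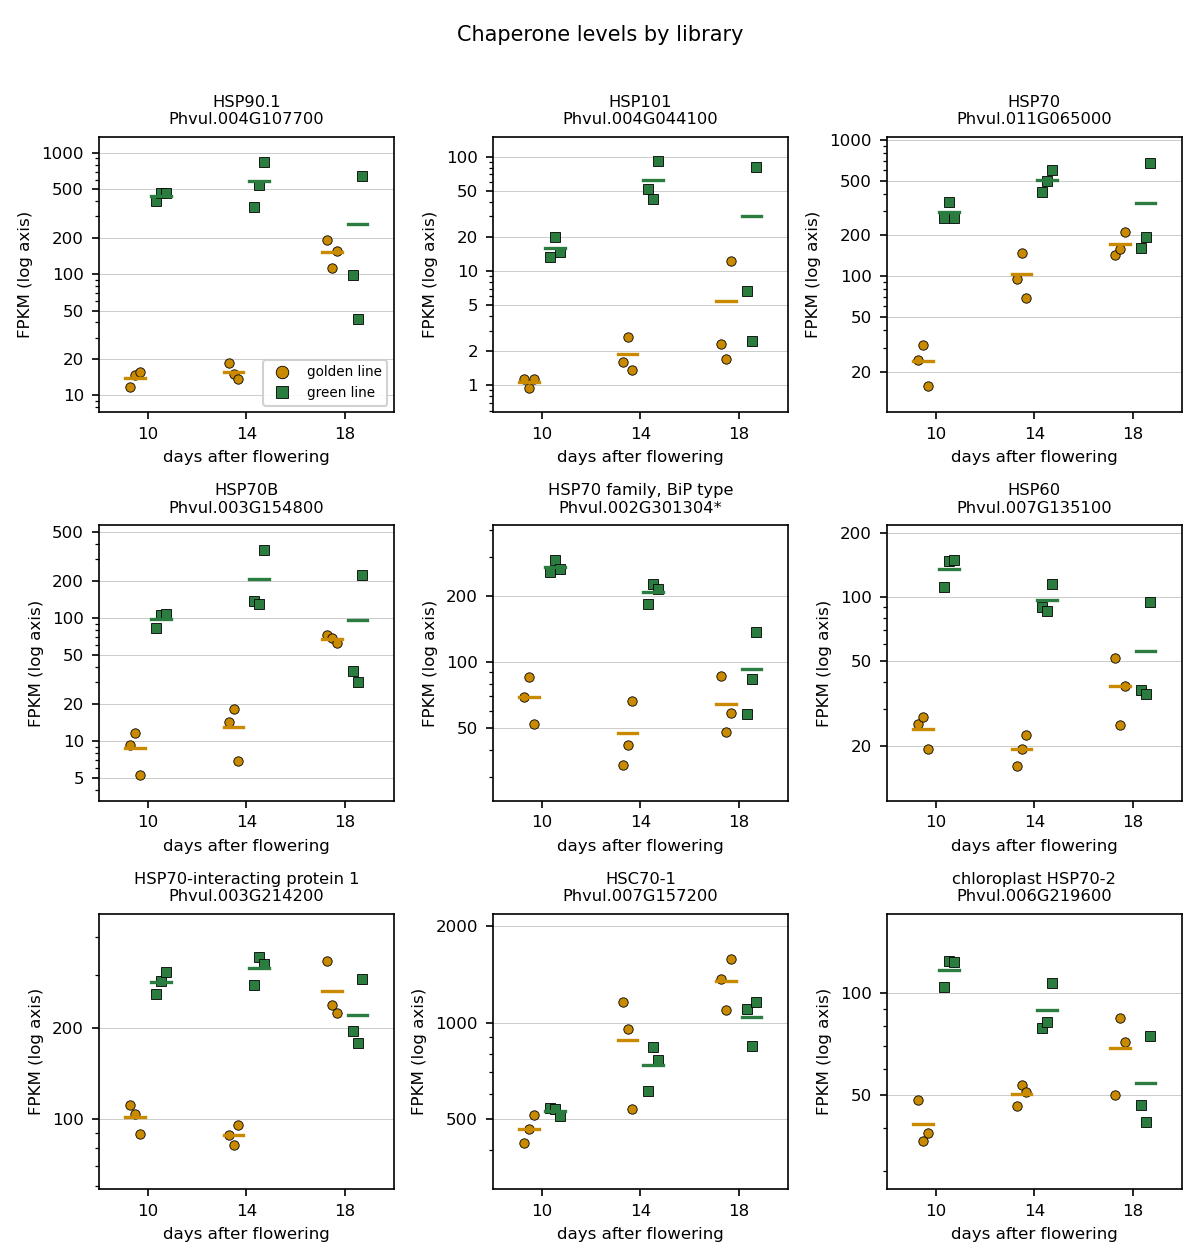
Level in FPKM (log axis) of 8 chaperone genes and HSP70-interacting protein 1 by library and age; circles are golden and squares green libraries, and bars are means of 3. HSP90.1 lies at 11.7 to 18.4 FPKM in young golden pods and at 360 or more in young green pods, HSC70-1 overlaps between the lines throughout, and at 18 DAF green replicate 3 stands above the other green squares in most panels.

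Factors of the A2 type, which sustain the response in Arabidopsis, were lower in young golden pods for 2 of 4 genes. Phvul.009G078300 was at 0.502, 0.986 and 1.23 FPKM in golden and 13.4, 13.3 and 16.2 in green libraries at 10 DAF, and at 5.78, 5.82 and 3.21 against 43.7, 40.8 and 71.6 at 14 DAF. The lines did not overlap at either age (log2 -3.96, SE 0.82, adjusted p = 0.0024 at 10 DAF; log2 -3.40, SE 0.78, adjusted p = 0.0035 at 14 DAF). In golden pods it rose from 10 DAF to 4.96, 8.73 and 29.9 FPKM at 18 DAF (log2 4.12, SE 0.83, adjusted p = 0.0039), while green libraries at 18 DAF read 15.7, 9.82 and 97.5 and overlapped with golden ones (-1.44, and 0.27 without green replicate 3, neither called).

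Phvul.003G135200, also A2, was at 3.67, 6.45 and 4.84 against 15.1, 16.2 and 14.6 FPKM at 10 DAF (log2 -1.61, SE 0.56, adjusted p = 0.039), a call lost without any 1 of the 6 libraries compared (adjusted p = 0.058 to 0.12). At 14 DAF it was at 5.93, 2.37 and 2.78 against 32, 20 and 21.4 (log2 -2.76, SE 0.58, adjusted p = 0.0021). Its near neighbour Phvul.003G135400 had no call between the lines at any age, with log2 values of 0.10 ± 0.47, 0.08 ± 0.47 and 1.04 ± 0.47 (SE). The fourth A2 gene, Phvul.001G037000, had -0.30 ± 0.70, -1.0 ± 0.69 and 0.30 ± 0.69, the last of these 1.62, adjusted p = 0.13 without green replicate 3. Both rose in golden pods from 10 to 18 DAF, by 2.25 and 2.24, the second of these no longer called without golden replicate 3 at 18 DAF (adjusted p = 0.17) and without 5 other libraries. At that age golden replicate 2 held the lowest level of both.

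Factors that were higher in young golden pods were A8, A3, both A4A genes, 1 A6B gene and heat shock factor 3, an A1 type. A8 (Phvul.002G322700) was at 13.6, 9.27 and 10.2 FPKM in golden and 2.8, 3.68 and 2.71 in green libraries at 10 DAF, and at 14.6, 20.7 and 14.4 against 2.85, 4.54 and 3.74 at 14 DAF. Golden libraries were above green ones without overlap (log2 1.85, SE 0.23, adjusted p = 5.5e-05 at 10 DAF; log2 2.15, SE 0.23, adjusted p = 2.5e-05 at 14 DAF). At 18 DAF the values came together, 7.09, 7.38 and 9.94 against 6.86, 8.29 and 5.55.

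A4A, a factor tied to reactive oxygen signalling in Arabidopsis, has a pair of genes in the set. Phvul.006G171700 was at 23.3, 21.7 and 12.7 FPKM in golden and 4.29, 6.47 and 7.24 in green libraries at 14 DAF, with no overlap (log2 1.67, SE 0.24, adjusted p = 0.00021). It differed by 0.89 ± 0.24 at 10 DAF, where the call was lost without golden replicate 3 or green replicate 2 (adjusted p = 0.051 to 0.054). Phvul.002G242000 differed by 0.88 ± 0.30 at 10 DAF and 1.07 ± 0.30 at 14 DAF. Its groups did not overlap at these ages, but the call at 10 DAF was lost without any 1 of the 6 libraries (adjusted p = 0.066 to 0.1).

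The A6B genes, related to an Arabidopsis factor of the abscisic acid response, pointed in opposite directions. Phvul.007G278200 was at 9.48, 8.2 and 8.84 FPKM in golden and 3.5, 2.64 and 2.96 in green libraries at 10 DAF, where golden pods were higher (log2 1.55, SE 0.31, adjusted p = 0.0019). By 18 DAF the order had turned, 2.75, 6.77 and 3.79 against 7.33, 7.97 and 11.7, with all golden libraries below the green ones and no call (log2 -0.88, SE 0.30, adjusted p = 0.065, and -0.62 without green replicate 3). Golden pods were higher at 14 DAF by 0.96 ± 0.30, a call lost without any 1 of 3 libraries (adjusted p = 0.059 to 0.078). Phvul.007G174800 was lower in golden pods, at 1.93, 1.29 and 2.69 against 13.2, 10.3 and 7.91 FPKM at 10 DAF (log2 -2.40, SE 0.72, adjusted p = 0.02) and by -2.45 ± 0.72 at 14 DAF. The call was lost on leaving out any 1 of 3 libraries at 10 DAF (adjusted p = 0.055 to 0.076) and without golden replicate 2 at 14 DAF (adjusted p = 0.056). The third gene, Phvul.001G154700, had no call in any comparison.

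A3 (Phvul.007G223401), which acts downstream of a drought and heat regulator in Arabidopsis, was at 9.42, 6.26 and 5.62 FPKM in golden and 1.93, 1.99 and 2.1 in green libraries at 10 DAF (log2 1.83, SE 0.46, adjusted p = 0.008). It rose in green pods to 3.69, 11.8 and 7.63 at 18 DAF (log2 1.99, SE 0.46, adjusted p = 0.0046 against 10 DAF, and 1.98 without replicate 3), and the lines overlapped at 14 and 18 DAF. Heat shock factor 3 (Phvul.002G040500) was at 9.37, 11.4 and 11.8 against 6.97, 6.98 and 6.76 FPKM at 10 DAF, a small but tight difference (log2 0.66, SE 0.15, adjusted p = 0.0038), and differed by 0.65 ± 0.15 at 14 DAF. The A1D genes Phvul.002G138500 and Phvul.003G283300 did not pass the test between the lines at any age, with differences from -0.08 to 0.28 on the log2 scale.

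Heat shock factor 4, the B1 repressor of Arabidopsis, has a pair of genes that rose from 10 to 18 DAF in both lines. Phvul.003G244000 went from 8.9, 9.51 and 8.06 to 49.9, 14 and 44 FPKM in golden pods (log2 2.19, SE 0.39, adjusted p = 0.0022) and from 9.36, 9.93 and 9.07 to 33.5, 34 and 51 in green pods (log2 2.13, SE 0.39, adjusted p = 0.001). Phvul.002G019100 rose by 1.98 ± 0.37 in golden and 2.60 ± 0.38 in green pods. Without green replicate 3 at 18 DAF the green rises were 1.88 and 2.37, both called. Neither gene was called between the lines.

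B2A gene Phvul.004G119600, the most abundant factor, was at 36.3, 36.2 and 32.1 against 72.3, 61 and 58.5 FPKM at 10 DAF (log2 -0.87, SE 0.20, adjusted p = 0.0046) and overlapped from 14 DAF on, having risen in golden pods (log2 1.20, SE 0.20, adjusted p = 0.019; adjusted p = 0.059 to 0.098 on leaving out any 1 of 5 libraries). The other B2A gene, Phvul.007G067800, was lower in golden pods at 14 DAF (log2 -1.85, SE 0.45, adjusted p = 0.0051). Of the 4 B4 genes, Phvul.009G065800 and Phvul.001G022900 were lower in golden pods at 14 DAF (-1.58 and -1.39), and Phvul.008G202500 fell with age in both lines to at most 0.107 FPKM in any library at 18 DAF. Its fall in golden pods from 10 DAF was -4.67 on the log2 scale, and -8.21 without golden replicate 1, the only golden library with reads at 18 DAF. The C1 gene Phvul.004G163300 was higher in golden pods at 14 DAF (log2 1.39, SE 0.46, adjusted p = 0.025), a call lost without any 1 of 4 libraries (adjusted p = 0.061 to 0.079). B3 (Phvul.001G131000) ranged from 0 to 6.37 FPKM, with 1 high library each in golden pods at 10 and 18 DAF and 2 in green pods at 18 DAF.

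The heat shock factor binding proteins, small proteins that damp the factors, were a little lower in golden pods at 10 DAF, by -0.44 ± 0.16 for Phvul.007G106500 and -0.40 ± 0.15 for Phvul.009G247900 on the log2 scale. Both calls sat at the threshold and were lost on leaving out any 1 of 10 libraries (adjusted p = 0.05 to 0.17 and adjusted p = 0.05 to 0.14). Of the ATPase-domain genes, only Phvul.009G176500 was called between lines, at 18 DAF (log2 0.84, SE 0.22, adjusted p = 0.017). Golden replicate 3 carried that difference, with 15.8, 11.4 and 28.3 FPKM in golden libraries, and without it the value was 0.47 (adjusted p = 0.076). The rise of this gene in golden pods from 10 DAF was 0.90, and 0.54 without that library.

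**Figure D4:**
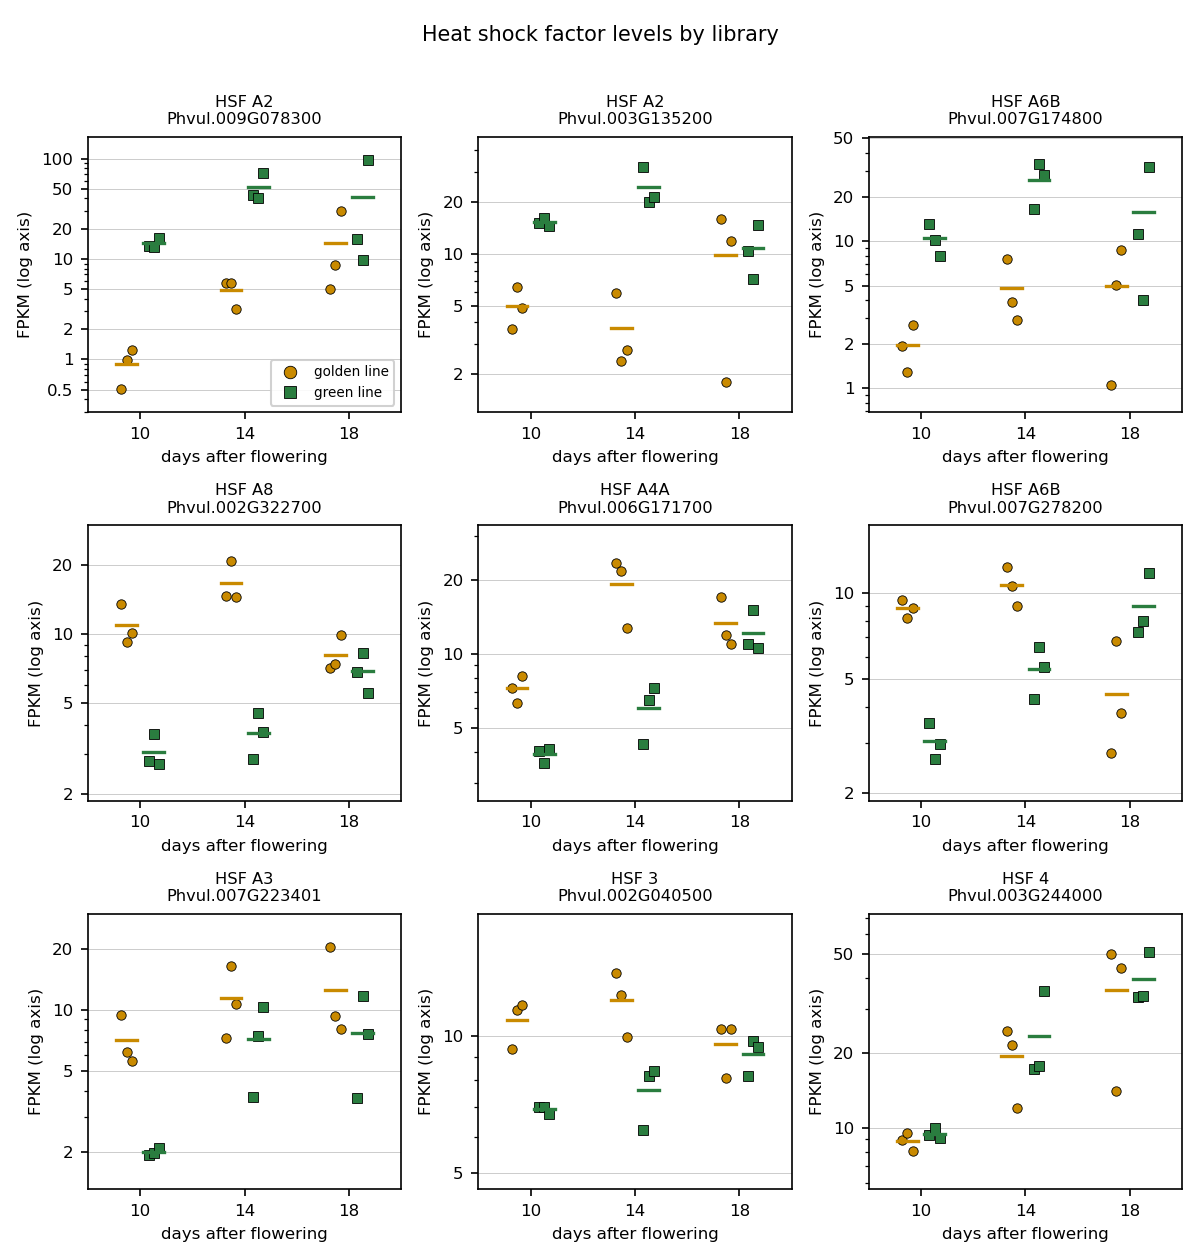
Level in FPKM (log axis) of 9 heat shock factor genes by library and age; circles are golden and squares green libraries, and bars are means of 3. The top row shows factors that were lower in young golden pods, the next 5 panels show factors that were higher there, and the last panel shows a heat shock factor 4 gene that rose with age in both lines.

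Within the golden line, 1 chaperone was called higher from 10 to 14 DAF and 8 from 14 to 18 DAF. The summed HSP70 level was higher at each step, at 858.7 to 917.9 FPKM at 10 DAF, 1026 to 1660 at 14 DAF and 1818 to 2398 at 18 DAF. Much of this sum came from HSC70-1 gene Phvul.007G157200, with means of 465, 885 and 1350 FPKM where the class sum averaged 889, 1425 and 2090. Of the 18 HSP70s, 1 was called higher at the first step and 3 at the second. The HSP90 sum was 227.6 to 284.3, 252.2 to 276.9 and 431.5 to 725.9 FPKM at 10, 14 and 18 DAF. Between 10 and 14 DAF only 4 members were called, all higher, against 0.688% of all genes higher and 0.61% lower. These were the HSP70 gene Phvul.011G065000 and the factors Phvul.002G019100, Phvul.004G119600 and Phvul.006G171700, and each of these calls was lost on leaving out any 1 of several libraries, so that the count ran from 0 to 6. From 14 to 18 DAF 9 members rose and 3 fell, against 5.69% and 4.95% of all genes. The risers were all 4 HSP90s, HSP70B, HSP91, HSC70-1 gene Phvul.007G157200, HSP60 gene Phvul.007G135100 and HSP70-interacting protein 1, and the 3 that fell were factors A8, A6B (Phvul.007G278200) and B4 (Phvul.008G202500). This count depended on single libraries and ran from 2 without golden replicate 2 at 14 DAF to 17 without golden replicate 2 at 18 DAF.

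Over the whole span from 10 to 18 DAF, 19 members rose and 2 fell in golden pods, against 11.3% and 9.37% of all genes. Chaperones made up 10 of the risers, factors 7, and the other 2 were HSP70-interacting protein 1 and the ATPase-domain gene Phvul.009G176500. The summed level of the 60 members went from 1748 to 1868 FPKM to 3101 to 4110 FPKM.

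In the green line the same span had 13 members higher and 10 lower, against 19.3% and 15.6% of all genes, and 11 of the 13 were heat shock factors. Under another scaling of the libraries (DESeq2 size factors) the split was 10 higher and 12 lower, and with limma on FPKM it was 9 and 16. Of the 29 chaperones 1 rose, HSC70-1 gene Phvul.007G157200, and 7 fell. From 10 to 14 DAF 3 members rose and 1 fell, against 5.09% and 3.19% of all genes, and from 14 to 18 DAF 3 rose and 2 fell, against 3.95% and 3.01%. On leaving out single libraries these counts ran from 0 to 8 and from 1 to 18.

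The green course hinged on replicate 3 at 18 DAF. Without it, 15 of the 29 chaperones were lower at 18 than at 14 DAF and none was higher, by edgeR's test, and 15 were lower and 1 higher than at 10 DAF. The members called from 14 to 18 DAF then numbered 2 higher and 16 lower, and those from 10 to 18 DAF 9 higher and 20 lower. Calls over all genes went from 1586 to 1504 and from 7960 to 7244 in these comparisons. HSP70B turned from a change of 0.06 over that span to -1.49 (adjusted p = 0.024). At 18 DAF without this library, 2 chaperones were higher in the golden line and none lower, with a median of 0.11 in place of -0.41. Line calls over all genes at that age went from 3416 to 2422. What sets the library apart was not tested. Its summed photosynthetic marker level was 4933 FPKM, against 12570 and 12990 in the other replicates. The sum of its seed marker list, which also holds lipid-transfer proteins, was 4900 against 6972 and 7315, and its evening clock sum of 93.8 lay between theirs.

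The course with age differed between the lines. The golden change from 10 to 18 DAF minus the green change was called positive for 14 members and negative for 2, where 3.77% of all genes were positive and 6.13% negative. Of the 14, 13 were chaperones and the other was HSP70-interacting protein 1. All 4 HSP90s were among them, led by HSP90.1 (log2 4.30, SE 0.96, adjusted p = 0.013). HSP70B (3.09 ± 0.90, log2 and SE) and HSP70 gene Phvul.011G065000 (2.73 ± 0.64) came next. The 2 negative members were factors A6B (Phvul.007G278200, -2.43 ± 0.43) and A8 (Phvul.002G322700, -1.49 ± 0.31). Without green replicate 3 at 18 DAF, 16 chaperones were positive and none negative, and their median went from 1.25 to 1.78. Calls over all genes went from 2258 to 2688. HSP90.1 then came to 6.21, adjusted p = 3.9e-05, Phvul.011G065000 to 3.71, and HSP70B to 4.64 (adjusted p = 0.00065). Its call, and those of HSP89.1, HSP60 gene Phvul.007G238500, HSC70-1 gene Phvul.001G169000 and the BiP locus, was lost on leaving out other single libraries (adjusted p up to 0.11). This comparison and the line comparisons at 10 and 18 DAF use the same libraries.

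Other genes of the folding system were counted beside the members. The helpers of HSP70 and HSP90, such as nucleotide exchange and organising factors, had 11 of 27 lower and 2 higher in golden pods at 10 DAF, and 14 lower and 1 higher at 14 DAF. Folding genes of the endoplasmic reticulum had 13 of 21 lower and 3 higher at 10 DAF, and 14 lower and 1 higher at 14 DAF. Chaperonins outside the HSP60 name, mainly of the TCP-1 family, had 11 of 20 lower and 2 higher at 10 DAF, and 9 lower and 4 higher at 14 DAF. Of all genes, 15.5% and 21.2% were lower and 17.1% and 20.4% higher at these ages. At 18 DAF no endoplasmic reticulum gene and no chaperonin was called by edgeR. Of the helpers 2 were lower and 1 higher, against 6.99% and 7.99% of all genes.

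Small heat shock proteins, which hold unfolding proteins without ATP, had 12 of 51 lower and 6 higher at 10 DAF. That is 23.5% and 11.8%, where all genes had 15.5% and 17.1%. At 14 DAF 21 were lower and 2 higher, that is 41.2% and 3.92%, where all genes had 21.2% and 20.4%. DnaJ co-chaperones, a broad family, lay near the shares of all genes. At 10 DAF 24 of 116 were higher and 16 lower, that is 20.7% and 13.8%, where all genes had 17.1% and 15.5%. At 14 DAF 25 were higher and 21 lower, that is 21.6% and 18.1%, where all genes had 20.4% and 21.2%. Named relatives of HSP90 and HSP100 went both ways. The htpG gene Phvul.001G005200, named after the bacterial HSP90, was at 85, 99 and 73.5 FPKM in golden and 423, 521 and 475 in green libraries at 10 DAF (log2 -2.45, SE 0.32, adjusted p = 8.8e-05). Casein lytic proteinase B3 gene Phvul.004G034000, an HSP100 of the chloroplast, was higher in golden pods instead, at 17.8, 15.9 and 22.2 against 6.4, 7.31 and 7.7 FPKM (log2 1.40, SE 0.17, adjusted p = 4.9e-05). Among 7 other heat response genes, multiprotein bridging factor 1C (Phvul.004G162100), a heat-induced co-activator, was lower at 10 DAF (log2 -3.28, SE 0.65, adjusted p = 0.0019) and 14 DAF (log2 -4.12, SE 0.68, adjusted p = 0.00045).

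Marker lists of the clock, of pod or carpel, of seed and of photosynthetic tissue were counted between the lines, and their part in the results was not tested. Of 19 tested pod or carpel markers, 3 were higher in golden pods and 0 lower at 10 DAF. That is 15.8% and 0%, where all genes had 17.1% and 15.5%. At 14 DAF 4 were higher and 1 lower, that is 21.1% and 5.26%, where all genes had 20.4% and 21.2%. At 18 DAF 0 were higher and 1 lower, against 7.99% and 6.99% of all genes. All 6 evening genes of the circadian clock were higher in golden pods at 10 and 14 DAF, and 1 at 18 DAF. Of all genes, 17.1%, 20.4% and 7.99% were higher at 10, 14 and 18 DAF. The summed level of the evening genes was 196 to 258 FPKM in golden and 33.6 to 40.6 in green libraries at 10 DAF. It was 234 to 309 and 57.2 to 62.9 at 14 DAF, and 113 to 163 and 80.2 to 126 at 18 DAF. The gap in this sum was wide at 10 and 14 DAF and narrow at 18 DAF. The seed marker list was matched by description and took in a superfamily that covers lipid-transfer proteins as well as seed storage proteins. It is therefore no measure of seed tissue alone. Of its tested genes, 14 of 108 were higher and 12 lower at 10 DAF, that is 13% and 11.1% where all genes had 17.1% and 15.5%. At 14 DAF 11 were higher and 27 lower, that is 10.2% and 25.0% where all genes had 20.4% and 21.2%. At 18 DAF 5 were higher and 4 lower, against 7.99% and 6.99% of all genes. Their sums in golden and green libraries were 10760 to 11880 and 5731 to 6364 FPKM at 10 DAF and 6163 to 7707 and 7976 to 10430 at 14 DAF. The photosynthetic marker sum was 24910 to 31990 in golden and 7350 to 10910 FPKM in green libraries at 14 DAF. At 18 DAF it was 13580, 42080 and 17390 in golden replicates 1, 2 and 3, and 12570, 12990 and 4933 in the green ones.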

How the data were processed

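Poly(A) RNA of 18 pod wall libraries was sequenced as read pairs, per the labels' protocols. The authors deposited 1 table with estimated counts and FPKM per gene and library, per the file headers. The deposited estimated counts were whole numbers, so rounding changed nothing. The deposited FPKM values had been scaled by the authors to mapped fragments and length. No aligner, counting program, genome build or strand setting is given in the sources used here, so reads of overlapping, antisense or near-identical genes cannot be told apart, and no coordinates are printed. Gene descriptions in the table carry Arabidopsis protein names. 635 genes without a name held 2.20% to 3.97% of each library's counts.

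The count test was edgeR 4.0.16 (R 4.3.3). Its expression filter kept 22805 genes and dropped 2319. After TMM scaling, 1 quasi-likelihood model held a mean for each of 6 groups (common dispersion 0.1545, 12 residual degrees of freedom). Two-sided p-values received Benjamini-Hochberg adjustment over all tested genes. The 10 comparisons were the lines at each age, the ages within each line, and the golden change from 10 to 18 DAF minus the green one. Log2 fold changes carry a standard error (SE) and levels are FPKM of the 3 libraries of a group, replicates 1 to 3 in order. No replicates were repeats of 1 library, with a smallest chi-square of 51.3 per gene. The procedure was tested on simulated data.

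Alternatives were DESeq2 1.42.0, its size factors in edgeR, limma 3.58.1 on log2(FPKM + 1), filters on low values, a replicate block and leaving out each library. Members, lists and tests were chosen with earlier results of these data known, and the classes within the set after the descriptions had been read. All heat shock factors, HSP90s and HSP100s could be named. Of the other members, the 4 called ones with the largest change in each comparison and direction, at a mean of at least 1 FPKM, and the 3 most abundant of each class were named, with a few more named after their values were seen. A list of morning clock genes matched no gene. Since PCR copies cannot be told from separate molecules here, count intervals cover counting error only.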

Additional observations from a re-analysis of the deposited data

Results flagged for a closer look

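For 16 members the change from 10 to 18 DAF differed between the lines by edgeR's test of the difference itself, given here as the golden change minus the green change on the log2 scale. In 14 it was positive. HSP90.1 (Phvul.004G107700) had the largest, 4.30, followed by HSP70B (Phvul.003G154800) at 3.09 and HSP70 gene Phvul.011G065000 at 2.73. HSP89.1 (Phvul.008G285400) stood at 2.14, and the HSP81.4 genes Phvul.008G281300 and Phvul.008G281400 at 1.71 and 1.59. The HSP60 genes Phvul.007G135100 and Phvul.007G238500 had 2.05 and 1.39. Chloroplast HSP70-2 gene Phvul.006G219600 had 1.96, HSP70-interacting protein 1 (Phvul.003G214200) 1.86, and HSC70-1 gene Phvul.001G169000 1.56. The BiP locus (Phvul.002G301304 and Phvul.002G328904) also had 1.56, HSP91 (Phvul.005G171400) 1.39 and the endoplasmic reticulum HSP70 gene Phvul.006G001600 1.25. The 2 negative values belonged to heat shock factors, A6B gene Phvul.007G278200 at -2.43 and A8 gene Phvul.002G322700 at -1.49. Groups of 3 libraries are too small for a test of single outlying values, so green replicate 3 at 18 DAF was described by counts alone.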

How the results depend on the processing

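At 10 and 14 DAF 26 to 37 and 29 to 36 members were called between the lines over all settings run, where the reported counts are 35 and 34. The chaperone median (log2) then ranged from -1.94 to -1.50 at the younger of these ages and from -1.80 to -1.56 at the older one. The count at 18 DAF was 4, 9 with DESeq2 (2 higher, 7 lower), and 3 to 7 on leaving out single libraries, with 7 without green replicate 2 at 18 DAF. In golden pods from 10 to 14 DAF it was 4, 8 with DESeq2, and 0 to 6 without single libraries, with 0 without replicate 1 or 2 of either age. From 14 to 18 DAF it was 12, and 2 to 17 without single libraries. In green pods from 10 to 14 DAF it was 4, 7 with DESeq2, and 0 to 8 without single libraries, with 0 without replicate 3 at 10 DAF and 8 without replicate 3 at 18 DAF. From 14 to 18 DAF it was 5, 9 with DESeq2 (3 higher, 6 lower), and 1 to 18 without single libraries, with 18 without replicate 3 at 18 DAF. On leaving out single libraries, the longer span had 17 to 25 calls in golden and 16 to 29 in green pods, and the difference between the lines in that change 11 to 20. With DESeq2 these were 26, 29 and 21. Among single members, 378 values lost their call under an alternative, 175 gained one, 3403 did neither, and 2 reversed. Without green replicate 3 at 18 DAF, HSP70B (Phvul.003G154800) went from 0.06 to -1.49 in green pods from 10 to 18 DAF, and HSP90.1 (Phvul.004G107700) from -0.67 to 1.24 between the lines at 18 DAF. The cause was not tested.

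The split of higher and lower calls shifted with scaling in green pods from 10 to 18 DAF, from 13 and 10 to 10 and 12 with DESeq2 size factors and 9 and 16 with limma on FPKM. It also shifted with limma in golden pods from 10 to 18 DAF, from 19 and 2 to 16 and 4, at 18 DAF, from 2 and 2 to 0 and 3, and in green pods from 14 to 18 DAF, from 3 and 2 to 2 and 5, and from 10 to 14 DAF, from 3 and 1 to 2 and 2. Limma on FPKM moved the median of all genes to -0.14 from 14 to 18 DAF and to -0.12 from 10 to 18 DAF in golden pods, and to -0.10 between the lines at 18 DAF.

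With replicate number as a block, members called in golden pods from 10 to 14 DAF numbered 1 in place of 4, and the other counts stayed within 1.5 times, at 33 at 10 DAF, 34 at 14 DAF and 4 at 18 DAF between the lines. The labels do not say that the numbers pair the libraries. Deviations of same-numbered libraries correlated between -0.213 and 0.18. No value for differently numbered libraries stands beside this range, so it does not settle whether the libraries are paired. Depth limits few members, chiefly Phvul.008G011900, Phvul.009G192501 and Phvul.001G131000. The spread of 3 libraries limits the rest.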

Other observations

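Regulators that work with HSP70 and in the endoplasmic reticulum gave these called genes with the largest line differences of their lists at 10 DAF. BCL-2-associated athanogene 5, a protein with an HSP70-binding domain, has a pair of neighbouring genes, and reads may be split between them. Phvul.008G016500 was at 0.108, 0.578 and 0.425 FPKM in golden and 64.9, 56 and 75.9 in green libraries at 10 DAF (log2 -7.43, SE 1.47, adjusted p = 0.0018 by edgeR), and Phvul.008G016600 at 0.198, 0.274 and 0.13 FPKM in golden and 13.9, 10.5 and 20.1 in green libraries (log2 -6.15, SE 1.15, adjusted p = 0.0012). DERLIN-1 (Phvul.005G008800), part of the export of misfolded proteins from the endoplasmic reticulum, was higher in golden pods, at 0.789, 0.908 and 2.29 against 0.284, 0.0635 and 0.0838 FPKM (log2 3.07, SE 0.89, adjusted p = 0.017), a call lost with limma on FPKM (adjusted p = 0.11) and without golden replicate 3, green replicate 2 or green replicate 3 (adjusted p = 0.068 to 0.076). PDI-like 1-1 (Phvul.009G126700), a disulphide isomerase, was lower in golden pods, at 8.66, 7.88 and 8.11 against 46.9, 56.6 and 52.1 FPKM (log2 -2.65, SE 0.40, adjusted p = 0.00029).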
